A study of Mus musculus with 2 samples.

Results

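The cytochrome P450 genes of families 1 to 4 were followed through single-cell RNA-seq of perfused mouse liver. Members were all genes whose symbol opens with Cyp, a family number from 1 to 4, a subfamily letter and a further number, and which had at least 10 unique molecular identifiers (UMIs, 1 per captured transcript) over both libraries. Of 31053 genes in the table, 81 had such a name and 54 of these, in 16 subfamilies, had enough UMIs. Of the other 27, 19 had no UMI at all, and the Cyp3a41a and Cyp3a41b genes had 7 and 5 UMIs, all in the tetYAP 4W library.

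The control library came from C57BL/6 liver of genotype LaptTA;WT and the tetYAP 4W library from C57BL/6 liver of genotype LaptTA; tetYAP. Both therefore carry the tetracycline transactivator (tTA), driven by the liver-specific LAP promoter, and the tetYAP genotype also carries a tetracycline-responsive, constitutively active point mutant of YAP. In the latter the transgene was kept silent with doxycycline food until 4 weeks of age and was then induced for 4 weeks by regular diet. Cells were released by collagenase perfusion and were not sorted, and each group is 1 library, which allows no test between the groups. Each interval given is a 95% interval that covers counting error only. The sources used here give neither the sex of the animals nor how many were pooled.

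P450 enzymes are haem-containing monooxygenases of the endoplasmic reticulum that receive electrons from the reductase Por and from cytochrome b5. Families 1 to 3 mainly oxidise drugs, other foreign chemicals and steroids, and family 4 mainly hydroxylates fatty acids and their derivatives. In mouse liver many of them lie in arrays of close paralogs, are more abundant near the central vein than near the portal vein, and differ between males and females under the control of the pattern of growth hormone secretion.

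Several genes whose ratios between these libraries differ are close copies of each other, also in the sequence before their start site. The first pair is Cyp2a4, a female-predominant steroid hydroxylase, and Cyp2a5, the coumarin hydroxylase. The 250 bases before the RefSeq start of each are shown here for GRCm38.p6, at chr7:26306942-26307191 and chr7:26835089-26835338, both on the plus strand, with the bases that differ between the 2 in capitals.
Cyp2a4: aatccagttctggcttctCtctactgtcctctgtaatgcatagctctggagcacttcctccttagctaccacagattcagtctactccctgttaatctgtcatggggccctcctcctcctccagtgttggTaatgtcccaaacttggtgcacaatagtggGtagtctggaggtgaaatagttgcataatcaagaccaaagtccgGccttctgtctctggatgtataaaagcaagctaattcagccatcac
Cyp2a5: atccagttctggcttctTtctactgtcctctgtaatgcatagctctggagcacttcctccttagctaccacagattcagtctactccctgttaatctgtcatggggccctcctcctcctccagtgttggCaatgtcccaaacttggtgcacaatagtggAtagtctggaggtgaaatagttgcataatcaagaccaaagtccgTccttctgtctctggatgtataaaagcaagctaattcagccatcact
Over 249 aligned bases the 2 differed at 4 positions, an identity of 98.4%. In the hepatocyte-like barcodes defined below Cyp2a4 had 3 control UMIs and Cyp2a5 had 275.

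The second set is a run of 4 neighbouring Cyp2c genes on the minus strand of chromosome 19. The windows are chr19:39886770-39887019 for Cyp2c69, chr19:39812815-39813064 for Cyp2c40, chr19:39649043-39649292 for Cyp2c67 and chr19:39741102-39741351 for Cyp2c68. Capitals mark the letters CAAAGNCCA, a form of the binding motif of the hepatocyte factor HNF4A.
Cyp2c69: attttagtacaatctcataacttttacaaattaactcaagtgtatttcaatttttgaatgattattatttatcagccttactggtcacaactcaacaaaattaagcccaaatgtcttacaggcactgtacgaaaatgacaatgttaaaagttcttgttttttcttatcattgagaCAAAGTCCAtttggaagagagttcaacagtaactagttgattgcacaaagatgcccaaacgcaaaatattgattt
Cyp2c40: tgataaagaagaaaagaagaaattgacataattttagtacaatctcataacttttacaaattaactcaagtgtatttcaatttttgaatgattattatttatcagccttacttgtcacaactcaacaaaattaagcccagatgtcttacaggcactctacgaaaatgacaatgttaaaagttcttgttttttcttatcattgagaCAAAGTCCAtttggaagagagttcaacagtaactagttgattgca
Cyp2c67: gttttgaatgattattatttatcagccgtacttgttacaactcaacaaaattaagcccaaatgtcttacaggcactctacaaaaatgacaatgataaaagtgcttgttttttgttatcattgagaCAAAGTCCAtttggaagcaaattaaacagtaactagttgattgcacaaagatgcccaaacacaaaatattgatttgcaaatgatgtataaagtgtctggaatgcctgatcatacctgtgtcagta
Cyp2c68: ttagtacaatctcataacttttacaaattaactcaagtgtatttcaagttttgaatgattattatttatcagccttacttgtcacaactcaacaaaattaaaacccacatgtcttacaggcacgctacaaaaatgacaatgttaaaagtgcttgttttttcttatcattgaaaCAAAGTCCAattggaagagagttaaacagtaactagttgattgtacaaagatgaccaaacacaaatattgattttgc
The Cyp2c69 window was 98.6% identical to that of Cyp2c40 (220 aligned bases), 93.0% to that of Cyp2c67 (200) and 94.3% to that of Cyp2c68 (246). All 4 windows held the same CAAAGTCCA, which began 75 bases before the start of Cyp2c69, 45 before that of Cyp2c40, 125 before that of Cyp2c67 and 77 before that of Cyp2c68. The Cyp2c67 window overlaps its annotated gene, which reaches to 39649079, so that its distance counts from a start inside this span. Among these 4 genes Cyp2c69 and Cyp2c40 were higher and Cyp2c67 was lower in tetYAP 4W.

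The third pair is Cyp3a11, the most abundant Cyp3a gene of mouse liver and a drug and steroid hydroxylase, and its neighbour Cyp3a44, at chr5:145879855-145880104 and chr5:145805875-145806124 on the minus strand, with the same letters in capitals.
Cyp3a11: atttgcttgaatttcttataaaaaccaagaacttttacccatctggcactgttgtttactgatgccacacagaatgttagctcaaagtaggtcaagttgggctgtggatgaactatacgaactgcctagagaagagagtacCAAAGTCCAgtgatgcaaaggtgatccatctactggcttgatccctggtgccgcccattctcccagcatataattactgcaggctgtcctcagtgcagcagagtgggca
Cyp3a44: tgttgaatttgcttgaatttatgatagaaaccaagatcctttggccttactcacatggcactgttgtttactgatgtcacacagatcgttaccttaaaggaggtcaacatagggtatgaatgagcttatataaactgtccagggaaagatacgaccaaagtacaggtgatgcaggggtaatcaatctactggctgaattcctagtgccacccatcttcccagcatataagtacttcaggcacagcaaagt
These 2 windows were 79.6% identical over 235 aligned bases, and the HNF4 letters were in that of Cyp3a11 and not in that of Cyp3a44. The Cyp3a44 window also overlaps its annotated gene, which reaches to 145805891.

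RefSeq held a promoter for 43 of the 54 members. On either strand, the HNF4 letters CAAAGNCCA were in the 250 bases of 9 of the 43 (20.9%) and of 1.70% of all 32851 promoters. The 9 were Cyp2a12, Cyp2a22, Cyp2c40, Cyp2c67, Cyp2c68, Cyp2c69, Cyp2c70, Cyp3a11 and Cyp3a16, genes that include near copies of each other. The letters GGAATG, bound by TEAD factors, the DNA-binding partners of YAP, were in 6 of the 43 (13.95%) and in 12.6% of all promoters. The letters TTCNNNGAA, bound by STAT5, were in 2 (4.65%) and in 7.02%. Only the Cyp2c67 window held 2 of the 3 motifs, at positions that do not overlap.

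The control library held 2989 barcodes and 9509885 UMIs, and the tetYAP 4W library 1524 barcodes and 6777210 UMIs, with no barcode sequence in common. Clusters were made without the P450 members. Clusters in which fewer than 3 markers of any other cell class were raised 3-fold were called hepatocyte-like because they held hepatocyte markers, none of which was itself raised 3-fold there. This gave 2697 control barcodes (90.2%) and 821 tetYAP 4W barcodes (53.9%). The name has limits, since the 12 hepatocyte markers together had 250.5 UMIs per hepatocyte-like control barcode and 247 per barcode outside the class, and in tetYAP 4W 333 and 240 UMIs. The hepatocyte-like barcodes also differed in their median share of mitochondrial UMIs, 28.2% in the control and 55.5% in tetYAP 4W. Yap1 had 155 control and 128 tetYAP 4W UMIs in the whole libraries, with a log2 ratio of 0.21 (-0.14 to 0.56). That interval included no change and stayed short of 2-fold, so these counts showed no 2-fold rise of Yap1. The reason was not tested.

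P450 transcripts were abundant in both libraries and their composition differed. The 54 members had 82923 UMIs in the control, 0.872% of all UMIs, and 36545 in tetYAP 4W, 0.539%. Cyp3a11 came first in both, with 14.2% of the control and 17.2% of the tetYAP 4W member UMIs, and Cyp2e1, which oxidises ethanol and paracetamol, came next with 11.96% and 11.4%. Behind them the order parted. In the control the following places were taken by Cyp2d9 (11.7%), Cyp2d10 (8.34%) and Cyp2f2 (7.26%), and in tetYAP 4W by Cyp2d10 (6.37%), Cyp2a12 (5.46%) and Cyp2c29 (5.02%). Because 1 UMI is counted per transcript 3' end, these levels can be compared between genes without a correction for length.

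A gene was called higher or lower where its CPM (UMIs per 1000000 UMIs) in tetYAP 4W was at least 2-fold that of the control, or the reverse, with an interval that excluded no change. For calls and medians, counts under 3 UMIs were set to a floor of 3. Over all barcodes 19 of the 54 members were higher, where 36.7% of all 12621 genes with at least 10 UMIs were, and 10 were lower, where 7.26% of all genes were. In bulk sums of this kind fewer cells of a type and less RNA per cell cannot be told apart. In hepatocyte-like barcodes 52 members had at least 10 UMIs. Of these, 17 were higher (32.7%), where 17.6% of 10986 genes were, and 8 were lower (15.4%), where 12.8% were. The median log2 ratio of the 52 members was 0.02, and that of all genes -0.09. The extremes were far from this median, with Cyp2b9 and Cyp3a44 at the upper and Cyp4a12a and Cyp2d9 at the lower end.

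**Figure D1:**
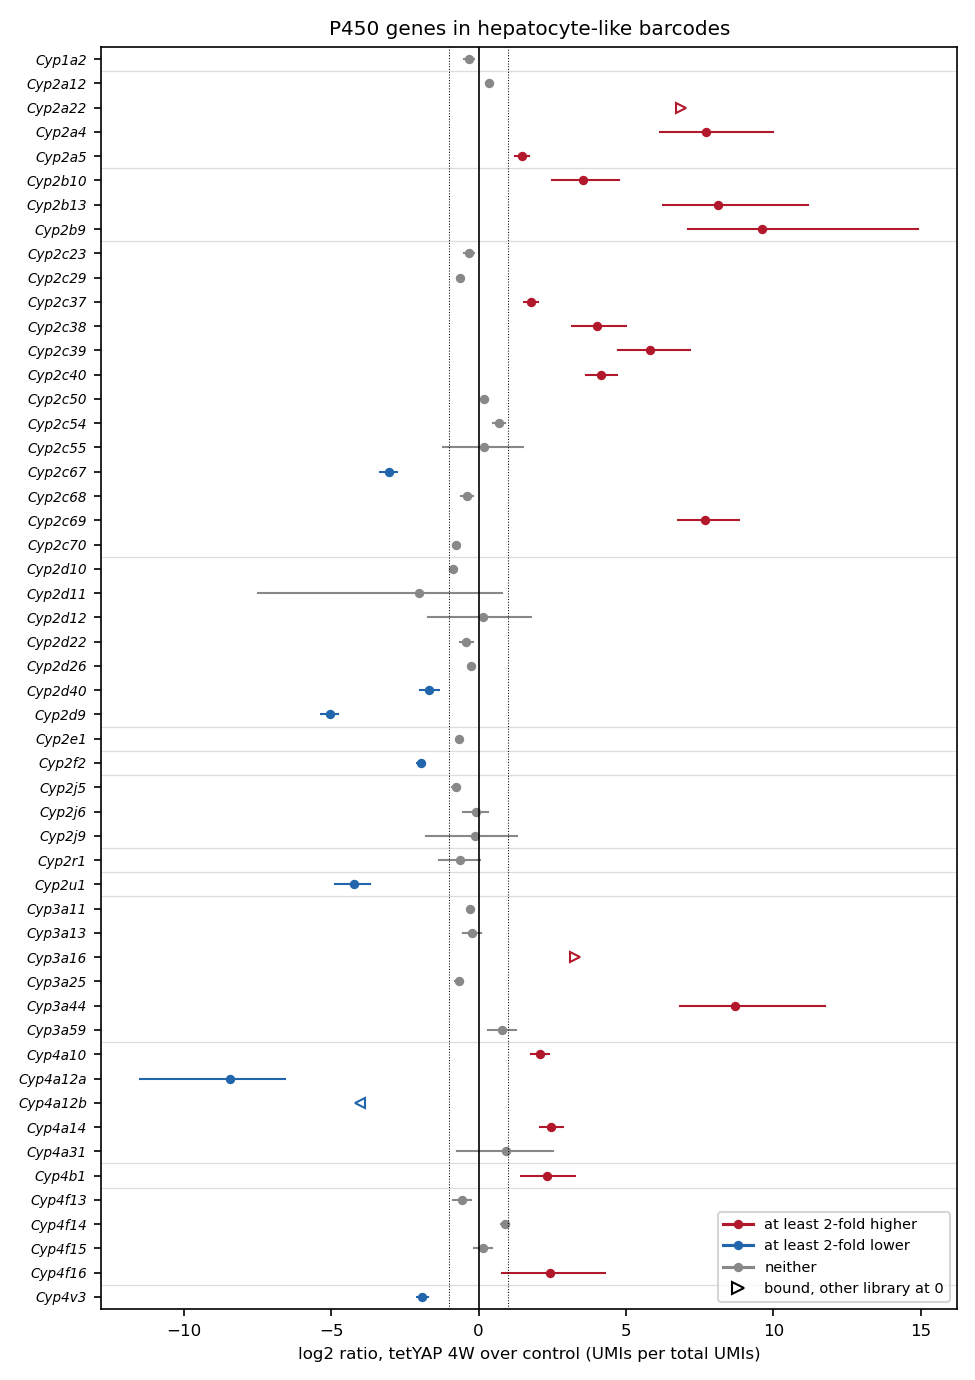
Log2 ratio of tetYAP 4W over control (x axis, from UMIs per total UMIs) of the 52 P450 genes with at least 10 UMIs in hepatocyte-like barcodes (y axis), 1 library per group, with 95% counting intervals. Triangles are ratios against a floor of 3 UMIs where 1 library had 0, dotted lines mark 2-fold, and 17 genes are higher and 8 lower.

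The sum of all members was lower in tetYAP 4W. In hepatocyte-like barcodes it went from 8831 CPM in the control to 6075 CPM, a log2 ratio of -0.54 (-0.56 to -0.52). Per barcode the members had 27.6 UMIs in the control (27.4 to 27.8) and 25.6 in tetYAP 4W (25.2 to 25.9). With a total that leaves out mitochondrial genes and the top 50 genes by abundance, the log2 ratio was -0.034 (-0.06 to -0.01) and it was 0.14 (0.09 to 0.18) in barcodes with at most 30% mitochondrial UMIs, which kept 1664 control and 110 tetYAP 4W barcodes. The lower sum thus depended on the scaling, whereas 15 of the 17 higher and 7 of the 8 lower members kept their call in each of the 9 alternative scalings, barcode sets and clusterings. The exceptions were Cyp4b1, Cyp4f16 and Cyp2d40.

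**Figure D2:**
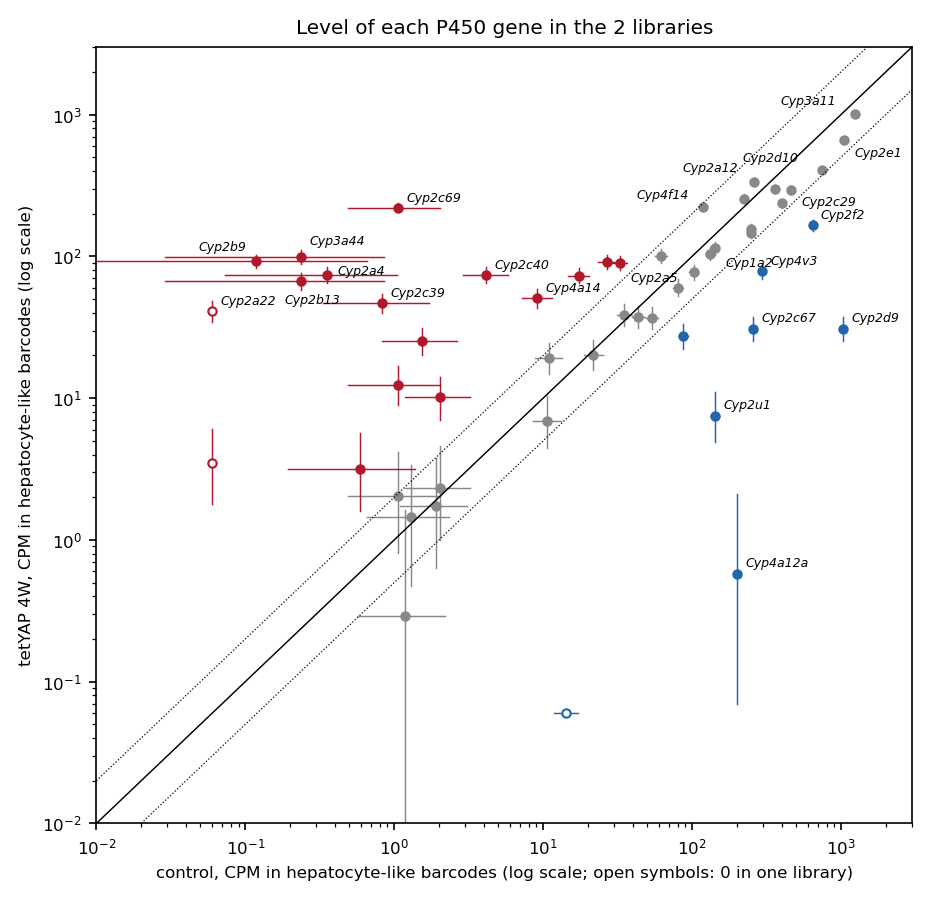
Level of each P450 gene in hepatocyte-like barcodes, as CPM in the control (x axis, log scale) and in tetYAP 4W (y axis, log scale), with exact Poisson 95% intervals, some of which run past the axes. The solid line marks equal levels and the dotted lines 2-fold, open symbols are genes at 0 in 1 library, red and blue are genes called higher and lower, and abundant genes such as Cyp3a11 and Cyp2e1 lie between the dotted lines while Cyp2c69 and Cyp2d9 lie far outside them.

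Members listed here as predominant in the liver of male or of female mice differed strongly between the libraries. The female-predominant list held Cyp2a4, Cyp2b9, Cyp2b13, Cyp2c40, Cyp2c69, Cyp3a16, Cyp3a41a, Cyp3a41b and Cyp3a44, of which 7 were members, and the male-predominant list held Cyp2d9, Cyp4a12a and Cyp4a12b. In hepatocyte-like barcodes all 7 female-predominant members were called higher and all 3 male-predominant ones lower in tetYAP 4W, where 17.6% and 12.8% of all genes were. All female-predominant members but Cyp2c40 had under 10 control UMIs. They met the UMI minimum only through tetYAP 4W, which favours a higher call. Cyp4a12a and Cyp4a12b likewise met it only through the control. The female-predominant members went from 52 to 2176 UMIs in sum, from 0.0699% (0.0522 to 0.0916) to 10.4% (9.96 to 10.8) of the member UMIs. The male-predominant ones went from 10514 to 109 UMIs, from 14.1% (13.9 to 14.4) to 0.519% (0.427 to 0.626). The median log2 ratio was 7.69 for the female-predominant and -5.06 for the male-predominant members.

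The same libraries also parted by the genes that mark sex. Xist, the RNA of the inactive X chromosome, had 3 control and 4859 tetYAP 4W UMIs over all barcodes, while the Y-linked genes Ddx3y, Eif2s3y, Uty and Kdm5d had 400, 200, 72 and 44 control UMIs and 0 in tetYAP 4W. With 1 library per group, sex and YAP induction cannot be told apart for any P450 gene below. Leaving out both lists, the other 42 members held 10 higher and 5 lower calls (23.8% and 11.9%), beside 17.6% and 12.8% of all genes. Their sum had a log2 ratio of -0.49 (-0.51 to -0.46). Of the 10 higher ones, Cyp2a22, Cyp2b10, Cyp2c39 and Cyp4f16 had 0, 9, 7 and 5 control UMIs and met the UMI minimum only through tetYAP 4W. The lists are short, and whether the other members differ by sex was not tested.

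Among the Cyp2b genes, whose best known member Cyp2b10 is induced by phenobarbital through the receptor CAR, nearly all UMIs were in tetYAP 4W. Cyp2b9 had 1 control and 319 tetYAP 4W UMIs in the hepatocyte-like class, with a log2 ratio of 9.60 (7.11 to 14.91). Cyp2b13 had 2 and 230 UMIs, a log2 ratio of 8.13 (6.26 to 11.19). Cyp2b10 had 9 and 43 UMIs, a log2 ratio of 3.54 (2.49 to 4.76). All 3 were thus higher, and the 2 female-predominant genes by more than Cyp2b10, with intervals that do not overlap that of Cyp2b10. The promoter windows of Cyp2b9 and Cyp2b13 were 99.2% identical.

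The Cyp2a genes lie beside them on chromosome 7. Cyp2a22 had no control UMI and 142 tetYAP 4W UMIs. That is 115-fold higher against a floor of 3 UMIs per library, and at least 92.6-fold by its interval. Cyp2a4 had 3 and 256 UMIs, with a ratio of 7.70 (6.14 to 9.99) on the log2 scale, and Cyp2a5 had 275 and 311, with 1.46 (1.22 to 1.70). Cyp2a12, a steroid hydroxylase and the most abundant of the 4, had 2185 and 1156 UMIs, and its log2 ratio of 0.37 (0.26 to 0.47) did not reach 2-fold. The Cyp2a genes together held 3.31% of the control and 8.88% of the tetYAP 4W member UMIs. The last gene of the array, Cyp2f2, which activates naphthalene, was lower, with 5428 and 571 UMIs and a log2 ratio of -1.96 (-2.09 to -1.84). Cyp2g1 was a member only over all barcodes and had 0 and 7 UMIs in hepatocyte-like ones.

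The Cyp2c genes, which oxidise drugs, arachidonic acid and, in the case of Cyp2c70, bile acids, held genes that differed in both directions. Of the 13 members, 5 were higher (38.5%), 1 was lower (7.69%) and 7 were neither, where 17.6% of all genes were higher and 12.8% lower. Cyp2c69 had 9 control and 761 tetYAP 4W UMIs, a log2 ratio of 7.69 (6.76 to 8.82). Over all tetYAP 4W barcodes it held 3.52% of the member UMIs, at rank 9. Cyp2c39 had 7 and 162 UMIs, a log2 ratio of 5.82 (4.74 to 7.16). Cyp2c40 had 35 and 256 UMIs (4.16, 3.64 to 4.71), and Cyp2c38 had 13 and 87 UMIs (4.03, 3.18 to 4.99). A smaller difference was seen for Cyp2c37, with 226 and 317 UMIs and a log2 ratio of 1.77 (1.52 to 2.03).

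Cyp2c67 was the only Cyp2c gene called lower, with 2168 control and 107 tetYAP 4W UMIs and a log2 ratio of -3.05 (-3.35 to -2.77). The abundant Cyp2c29 had 3886 and 1021 UMIs (-0.64, -0.74 to -0.54) and Cyp2c70 3382 and 816 UMIs (-0.77, -0.88 to -0.65), neither past 2-fold. Because gains and losses offset each other, the summed Cyp2c genes had a log2 ratio of only -0.10 (-0.15 to -0.06). That sum turned positive without mitochondrial and the 50 most abundant genes in the total (0.40), in barcodes with at most 30% mitochondrial UMIs (0.58) and without tetYAP 4W cluster 14 (0.32). The last 300 bases of the transcripts of Cyp2c40, Cyp2c67 and Cyp2c68 were 98.0% identical to another of the 3, and those of Cyp2c69 95.3% to Cyp2c67, so the split of 3' reads among these 4 genes is uncertain. The cause of their different ratios was not tested.

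Ratios were shared along part of the chromosome 7 array and varied between neighbours in others. On chromosome 7 the 6 genes Cyp2b10, Cyp2b13, Cyp2b9, Cyp2a4, Cyp2a5 and Cyp2a22 were called higher in a row, broken only by Cyp2g1, which had too few UMIs for a call, and were followed by Cyp2a12 (neither) and Cyp2f2 (lower). In the order of start positions on chromosome 19 the run from Cyp2c39 (39347346) to Cyp2c37 (39992424) read higher, higher, lower, neither, higher, higher, higher, with Cyp2c38 lying within the annotated span of Cyp2c39. On chromosome 4, Cyp4a12a and Cyp4a12b were lower and the next 2 genes, Cyp4a14 and Cyp4a10, were higher. On chromosome 5, Cyp3a44 and its neighbour Cyp3a11 were higher and neither.

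The Cyp2d genes took 26.1% of the member UMIs in the control and 13.6% in tetYAP 4W, the largest difference in share of any subfamily, in percentage points. Cyp2d9, a male-predominant steroid hydroxylase, had 8707 control and 107 tetYAP 4W UMIs in the hepatocyte-like class, with a log2 ratio of -5.06 (-5.35 to -4.79). Its close relative Cyp2d10 had 6250 and 1407 UMIs, a log2 ratio of -0.87 (-0.95 to -0.78) that did not reach 2-fold. Their promoter windows were 85.0% identical. Cyp2d40 was also called lower, with 737 and 95 UMIs (-1.67, -1.99 to -1.36), but was at -0.75 in barcodes with at most 30% mitochondrial UMIs. Cyp2d26 had 3034 and 1035 UMIs, a log2 ratio of -0.27 (-0.37 to -0.16). Cyp2d22 (677 and 208 UMIs), Cyp2d11 (10 and 1) and Cyp2d12 (11 and 5) were not called either way.

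Among the single-gene subfamilies, Cyp2u1 and Cyp4v3 stood out. Cyp2u1, a hydroxylase of long-chain fatty acids, had 1202 control and 26 tetYAP 4W UMIs, a log2 ratio of -4.24 (-4.87 to -3.69), the lowest ratio outside the male-predominant list. Cyp4v3, also a fatty acid hydroxylase, had 2479 and 271 UMIs, a log2 ratio of -1.91 (-2.09 to -1.73). Both were called lower in each of the 9 alternative scalings, barcode sets and clusterings in which single genes were recomputed. Cyp2e1 had 8850 and 2288 UMIs (-0.67, -0.73 to -0.60) and Cyp1a2, which oxidises caffeine, 1206 and 393 UMIs (-0.33, -0.50 to -0.17), both short of 2-fold. Cyp2r1, a vitamin D hydroxylase, had 90 and 24 UMIs, and its interval (-1.34 to 0.04) included no change. The Cyp2j genes were led by the arachidonic acid epoxygenase Cyp2j5, with 2101 and 509 UMIs (-0.76, -0.90 to -0.62), while Cyp2j6 (183 and 70) and Cyp2j9 (16 and 6) had intervals that included no change.

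In the Cyp3a subfamily the most abundant gene differed little between the libraries and a rare one differed strongly. Cyp3a11 had 10481 control and 3513 tetYAP 4W UMIs, a log2 ratio of -0.29 (-0.35 to -0.24), which changed sign to 0.21 without mitochondrial and the 50 most abundant genes in the total. Cyp3a44 had 2 and 342 UMIs, a log2 ratio of 8.70 (6.84 to 11.76). Cyp3a16 had 0 and 12 UMIs, at least 6.78-fold higher by its interval. Cyp3a25 had 2083 and 537 UMIs (-0.67, -0.81 to -0.53), and Cyp3a13 and Cyp3a59 were also short of 2-fold. The summed subfamily held 17.5% of the control and 21.9% of the tetYAP 4W member UMIs.

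The Cyp4a genes differed in both directions. Cyp4a12a, the male-predominant hydroxylase of arachidonic acid, had 1687 control and 2 tetYAP 4W UMIs, a log2 ratio of -8.43 (-11.48 to -6.58). Cyp4a12b had 120 and 0 UMIs, at least 13.1-fold lower by its interval. The transcripts of Cyp4a12a and Cyp4a12b are 98.6% identical over 295 aligned bases of their ends, so the split between them is uncertain. Cyp4a10 and Cyp4a14, fatty acid hydroxylases induced through PPARA, were both higher. Cyp4a10 had 146 and 253 UMIs, a log2 ratio of 2.08 (1.78 to 2.38), and Cyp4a14 had 77 and 175 UMIs, a log2 ratio of 2.47 (2.08 to 2.88). Of the Cyp4f genes, which inactivate leukotrienes, Cyp4f14 had 1002 and 772 UMIs and a log2 ratio of 0.91 (0.77 to 1.05), short of 2-fold. Cyp4f16 had 5 and 11 UMIs and was called higher (2.42, 0.78 to 4.30), a call that was lost in barcodes with at most 30% mitochondrial UMIs, where the ratio was 3.75 (-0.41 to 6.29).

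Cyp4b1, which was called higher with 17 and 35 UMIs (2.33, 1.45 to 3.26), was highest in endothelial cell-like barcodes. It had 1.08 UMIs per endothelial cell-like barcode in the control (0.836 to 1.38, 60 barcodes) and 1.29 in tetYAP 4W (1.10 to 1.501, 128 barcodes), and 0.0063 and 0.0426 per hepatocyte-like barcode. Cluster 13, a tetYAP 4W hepatocyte-like cluster of 252 barcodes, held 5.13 endothelial marker UMIs per barcode. Without it the log2 ratio of Cyp4b1 was 0.64 (-0.79 to 1.93), and the call was lost.

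P450 UMIs were found in the barcodes of all other cell classes, at levels that ranged from below to above those of hepatocyte-like ones. In tetYAP 4W, hepatocyte-like barcodes had 25.6 member UMIs each, and the 214 barcodes of the 3 blood classes (T or NK, B and erythroid cell-like), whose cells should lack most of these genes, had 24.3 (23.6 to 24.9). The 276 macrophage-like barcodes had 18.3 (17.8 to 18.8), and by CPM they were at 4217 and the hepatocyte-like ones at 6075. All barcodes outside the hepatocyte-like class had 29.2 in the control (28.5 to 29.8) and 22.1 in tetYAP 4W (21.8 to 22.5). In that library 37 members had at least 100 UMIs in hepatocyte-like and blood cell-like barcodes together. Of these, 6 were above the blood cell classes, 1 (Cyp4a10) was below them and 30 had an interval that included equality. The median member had 95.2% of its hepatocyte-like level in the blood cell classes. Cyp3a11 had 4.28 UMIs per hepatocyte-like barcode and 4.33 per blood cell-like barcode, and Cyp2c69 0.927 and 0.818. How much of this RNA came from outside the cell of a barcode was not tested, so the ratios between the libraries describe the RNA of their barcodes and not that of single hepatocytes.

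**Figure D3:**
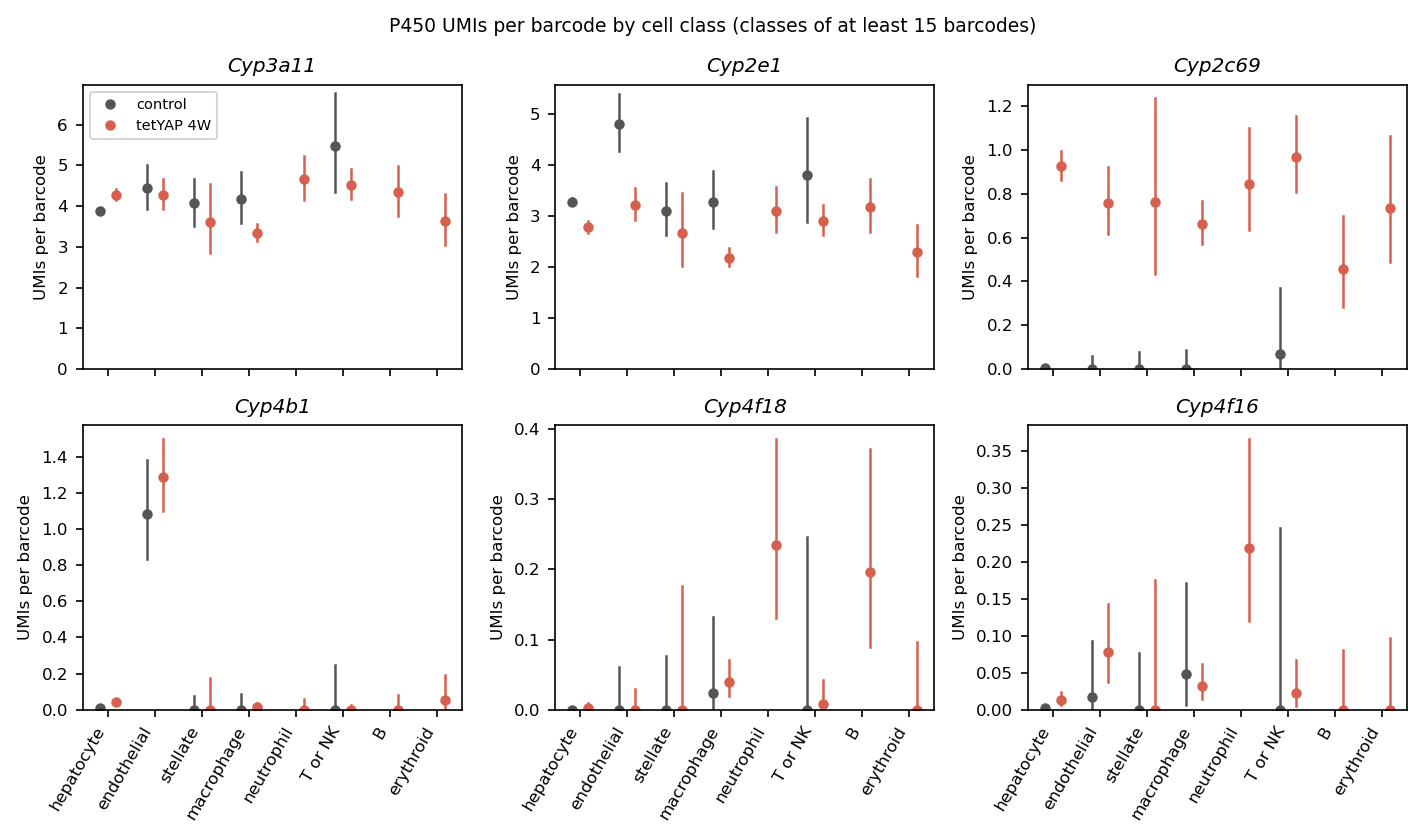
UMIs per barcode (y axis) of 6 P450 genes in each cell class named from its markers (x axis) in the control (grey) and tetYAP 4W (red) library, with exact Poisson 95% intervals; classes with under 15 barcodes in a library are not drawn. Cyp3a11 and Cyp2e1 are seen in all classes drawn and Cyp2c69 in all tetYAP 4W classes drawn, at levels that differ between some classes (Cyp2e1 at 4.82 in endothelial cell-like and 3.28 in hepatocyte-like control barcodes), while Cyp4b1 is highest in endothelial and Cyp4f18 in neutrophil and B cell-like barcodes.

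A few members had their highest level outside the hepatocyte-like class, both per barcode and by CPM. Cyp4f18, which inactivates leukotriene B4 in leukocytes, had 38 of its 39 UMIs in tetYAP 4W, with 0.234 per neutrophil or monocyte-like barcode (0.131 to 0.387), 0.0399 per macrophage-like barcode and 0.196 per B cell-like barcode (0.0895 to 0.371). Its hepatocyte-like level was 0.00244. Cyp4f16 had 0.219 UMIs per neutrophil or monocyte-like barcode (0.120 to 0.367) and 0.0781 per endothelial cell-like barcode, against 0.0134 in tetYAP 4W hepatocyte-like ones. Cyp4f13 had 0.405 per macrophage-like control barcode (0.236 to 0.648, 17 UMIs in 42 barcodes), against 0.169 per hepatocyte-like one. In tetYAP 4W its macrophage-like level was not set apart in this way. Its endothelial (0.273) and neutrophil or monocyte-like (0.344) levels there were above the hepatocyte-like 0.155 per barcode but not by CPM. Cyp4f18, Cyp4f16 and Cyp4b1 were thus members with a class pattern of their own, while that of Cyp4f13 was seen in the control only.

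Cyp2c69 and Cyp2d9 were apart between the libraries in all hepatocyte-like clusters. Clusters 0, 1 and 2 were wholly control and clusters 13, 14 and 15 wholly tetYAP 4W, and cluster 3 held 120 control and 23 tetYAP 4W barcodes. Cyp2c69 was at 174 to 388 CPM in the 4 tetYAP 4W sets of barcodes and at 0 to 2.72 CPM in the 4 control sets. Cyp2d9 was at 27.7 to 66.9 CPM and at 823 to 1082 CPM, in the same order. Both genes were among the extremes of the ratio between these same barcodes, so their separation by cluster followed from that choice. Clusters of 1 library are not replicates of it, and the share of all genes that separate in this way is not given. Cyp2a22 and Cyp2b9 varied more among the tetYAP 4W clusters, and were highest in cluster 15, at 227 and 308 CPM, which was rich in the nuclear RNAs Malat1 and Neat1, against 23.7 and 67.0 CPM in cluster 14. Cluster 14, with 491 barcodes and 60.8% mitochondrial UMIs, had the lowest summed member level, 5097 CPM, and cluster 15 had 9129 CPM. Among the 10 leading genes of cluster 14 were 8 of the exocrine pancreas, which had 0.371 UMIs per barcode there beside 359 of the hepatocyte markers. Without cluster 14 the log2 ratio of the member sum was -0.17 (-0.20 to -0.13). Of the 50 members with at least 10 UMIs there, 19 were higher, where 30.8% of 10588 genes were, and 8 were lower, where 2.89% were.

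Position along the liver lobule was estimated within each library by ranking hepatocyte-like barcodes on 13 pericentral and 14 periportal landmark genes, none of them a P450 gene, and cutting them into 3 equal parts, of which the outer 2 were compared. Landmark counts were low, with a median of 3 pericentral and 12 periportal UMIs per control barcode and of 5 and 9 in tetYAP 4W. In the control, 6 of 29 members were higher in the pericentral part, where 4.41% of 3314 genes were, and 1 in the periportal part, where 2.75% were. The pericentral genes were Cyp2a5 (log2 ratio 0.56, 0.13 to 0.997), Cyp1a2 (0.39), Cyp2c54 (0.31), Cyp2c29 (0.24), Cyp3a11 (0.15) and Cyp2e1 (0.15, 0.08 to 0.22), and the periportal gene was Cyp2f2 (-0.16, -0.25 to -0.06). The differences were small beside the largest ones between the libraries. For Cyp1a2 the zonal ratio of 0.39 was no smaller in size than its log2 ratio between the libraries, -0.33.

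In tetYAP 4W, 5 of 30 members were higher in the pericentral part, where 9.18% of 1351 genes were, and 3 in the periportal part, where 9.03% were. Cyp2a5 (0.56, 0.17 to 0.96), Cyp4a14 (0.54), Cyp2c37 (0.45), Cyp2e1 (0.44, 0.29 to 0.58) and Cyp2c29 (0.26) were pericentral. Cyp2a22 (-0.79, -1.41 to -0.19), Cyp2b9 (-0.73, -1.14 to -0.34) and Cyp3a25 (-0.47) were called periportal, a share near that of all genes. The periportal calls in tetYAP 4W were 2 of 29 members without Cps1 and Ass1 in the landmarks. They were 1 of 9 in barcodes with at most 30% mitochondrial UMIs. Cyp2a5, Cyp2c29 and Cyp2e1 were thus called pericentral in both libraries. When Cps1 and Ass1 were left out of the landmarks, Cyp2c29 and Cyp2e1 kept both calls, while Cyp2a5 kept its tetYAP 4W call and was at 0.40 (-0.03 to 0.84) in the control. In barcodes with at most 30% mitochondrial UMIs Cyp2e1 kept both calls, whereas Cyp2a5 was at 0.50 (-0.03 to 1.03) in the control and Cyp2c29 at 0.04 (-0.47 to 0.54) in tetYAP 4W. That limit left 5 calls among 28 members in the control and 2 among 9 in tetYAP 4W, with 36 tetYAP 4W barcodes in each part.

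**Figure D4:**
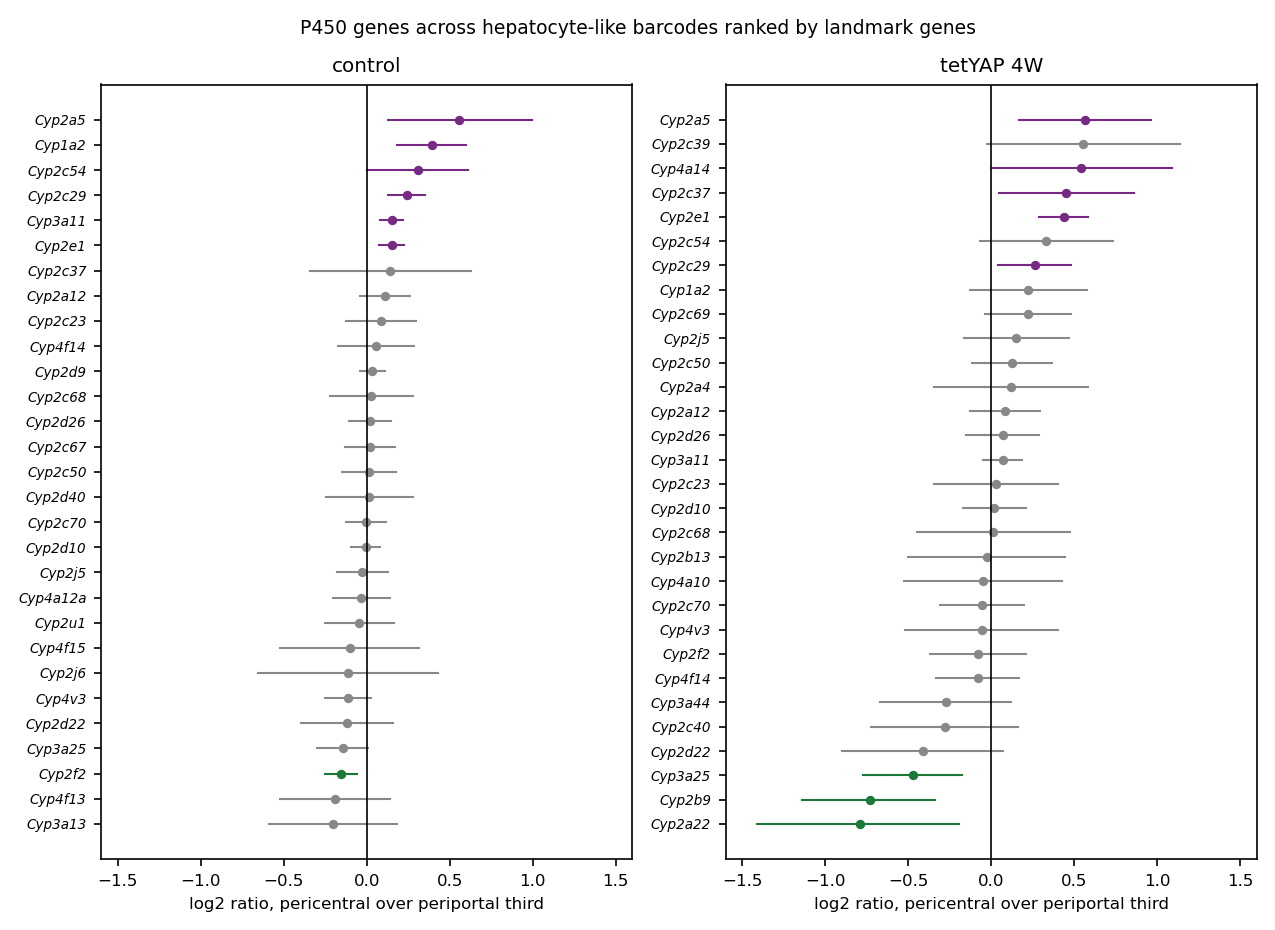
Log2 ratio of the pericentral over the periportal part of hepatocyte-like barcodes (x axis), with 95% counting intervals, for 29 P450 genes in the control and 30 in tetYAP 4W (y axis, ordered by ratio). Purple marks genes higher in the pericentral and green genes higher in the periportal part, with Cyp2a5 at the top in both libraries.

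The spread between hepatocyte-like barcodes was examined for 23 control and 13 tetYAP 4W members. The variance over that of counting was at most 1.23 for the control members except Cyp3a11, at 1.72. In tetYAP 4W it was at most 1.29 for 8 of the 13, and was 2.16 for Cyp3a11, 2.01 for Cyp3a25, 1.95 for Cyp2e1, 1.58 for Cyp2c50 and 1.36 for Cyp2c69.

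The genes that serve or regulate P450 enzymes were compared in hepatocyte-like barcodes as lists. Of all genes there, 17.6% were higher and 12.8% lower, with a median log2 ratio of -0.09. Of 5 redox partners 1 was higher and 2 lower, with a median log2 ratio of -0.99. Por, the reductase of all microsomal P450 enzymes, had 238 control and 257 tetYAP 4W UMIs, a log2 ratio of 1.40. The haem-binding Pgrmc1 (-1.10) and Cyb5b (-1.41), 1 of the cytochrome b5 genes, were lower. The more abundant cytochrome b5 gene Cyb5a had 10754 and 2382 UMIs and a log2 ratio of -0.89, short of 2-fold. Of 8 enzymes of haem synthesis none was higher and 3, Urod (-1.04), Cpox (-1.47) and Fech (-1.30), were lower (median -0.58). Alas1, the rate-limiting enzyme, had 500 and 338 UMIs and a log2 ratio of 0.72, short of 2-fold. Of 13 regulators, 3 were lower, Ppara (-1.33), Cebpa (-1.16) and Nr0b2 (-1.502), and none was higher (median -0.27). The call of Por held in each alternative, and the 8 lower calls of these 3 lists were all lost without mitochondrial and the 50 most abundant genes in the total.

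The list of growth hormone control of sex bias held 5 genes, of which 1 was higher and 2 lower (median -0.79). The shares of all genes were 17.6% and 12.8%. Cux2, a female-predominant repressor of male-predominant liver genes, had 0 control and 32 tetYAP 4W UMIs, at least 19.96-fold higher by its interval. Bcl6, a male-predominant repressor of female-predominant genes, had 123 and 11 UMIs, a log2 ratio of -2.20. The receptor Ghr had 2678 and 431 UMIs, a log2 ratio of -1.35, and the call was lost under the total without mitochondrial and the 50 top genes. Onecut1 (-0.79) and Stat5b (-0.43) were short of 2-fold.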

How the data were processed

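Droplet single-cell RNA-seq (10x Genomics, 3' chemistry) of 2 libraries was analysed from the UMI counts that the authors deposited as 1 matrix holding both libraries. Per the authors, reads were aligned and counted with Cell Ranger on mm10, cells above 7500 UMIs were excluded and each condition was down-sampled to 3000 cells, and Seurat 3 was used downstream. The matrix held 2989 control barcodes (516 to 7277 UMIs, median 3117) and 1524 tetYAP 4W barcodes (2355 to 7493 UMIs, median 4150). How many cells the limit removed from each library is not known here. Its effect on levels per barcode, class shares and ratios between the libraries was not tested. Per the authors' methods, perfused liver libraries, as both are here, were made with the v3 kit. No further barcode filter was applied and no doublet caller was run, so doublets remain.

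Counts were summed per library and class and scaled to CPM by the total. Log2 ratios carry exact conditional binomial 95% intervals, levels exact Poisson and shares Clopper-Pearson intervals, which cover counting error only. With 1 library per group there is no test between groups. A call needed at least 10 UMIs, a 2-fold ratio and an interval excluding 0, with counts under 3 set to 3 for calls and medians. A ratio printed for a count of 1 or 2 uses that count. Barcodes were clustered with scanpy 1.11.5 (counts per 10000, 2000 variable genes without P450 members, 20 components, 15 neighbours, Leiden 0.8), and a class other than the hepatocyte-like one was named where at least 3 of its markers were 3-fold raised. A control cluster of 119 barcodes with 5 raised endothelial markers stayed unnamed, because its 10 leading genes held a marker of another class (Rgs5) and no endothelial one. The interval and call code was run on simulated Poisson counts, with 200 of 10972 genes changed in the hepatocyte-like comparison. Of these 200, 97.0% had their true ratio within the interval and 98.5% were called. The simulated counts held counting error only, so this does not show how the intervals hold with spread between barcodes or animals. Python 3.11.15, numpy 2.4.6, scipy 1.17.1 and, for TMM factors as a scaling only, edgeR 4.0.16 in R 4.3.3 were used.

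Named genes were the member with most UMIs in each subfamily, the 10 highest and 10 lowest ratios among members with at least 100 UMIs, the sex-predominant lists, members highest outside the hepatocyte-like class, and lists of partner, haem synthesis, regulator and growth hormone genes. Members named besides these were chosen after their values were seen. The members and lists were chosen with earlier results of these data known. Promoters and gene positions are from RefSeq on GRCm38.p6. Identity of 3' ends was computed from NCBIM37 transcripts. Alternatives were another scaling, mitochondrial limit, barcode weight, UMI minimum, clustering and landmark set.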

Additional observations from a re-analysis of the deposited data

How the results depend on the processing

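Counting intervals cover no variation between animals. No paired analysis was possible because each group is 1 library and the libraries share no replicate number, and for the same reason no replicate could be left out. Over all barcodes, TMM scaling raised the lower calls from 10 to 21 and moved the log2 ratio of the member sum from -0.69 to -1.25, while it was -0.76 in barcodes with at most 30% mitochondrial UMIs and -0.63 with barcodes weighted equally. In hepatocyte-like barcodes the sum of -0.54 was -0.034 without mitochondrial and the 50 most abundant genes in the total, -0.48 with equal weights, -0.69 without cluster 13, -0.17 without cluster 14 and, reversed, 0.14 at 30% mitochondrial UMIs. The median of the members, 0.02, was 0.53 in the first and 0.59 in the last of these, 0.58 without cluster 14 and 1.29 with no UMI minimum. Those settings also moved the median of all genes in hepatocyte-like barcodes, by 0.51, 1.08 and 0.70 for the smaller total, the mitochondrial limit and the loss of cluster 14, and TMM moved it by -0.56 over all barcodes. The median of the male-predominant members was -4.55 with the smaller total and -4.51 with the mitochondrial limit. With that limit, added like the cluster omissions after seeing the data, barcodes outside the hepatocyte-like class had 30.1 member UMIs each in the control and 22.5 in tetYAP 4W, and 7 zonation calls were left of 15. Other clusterings and minimums left the remaining comparisons within the limits set for them, 70 of 88 in all. The cause of these shifts was not tested.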
